A study of Panagrellus redivivus with 189 samples.

Results

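A set of 38 low-abundance features of the gastrula of *Panagrellus redivivus*, a free-living nematode, held at least 50% of their gastrula counts in their 5 highest of 73 libraries. They were chosen from 1566 features by their own values. Their summed counts came to at least 40 and under 100 CPM (counts scaled to a total of 1000000) over the gastrula libraries, to under 100 CPM at 6 to 10 cells and to under 200 CPM at 1 to 3 cells. Within those level bounds lay 73 features, and the share in the 5 highest libraries divided them into the 38 concentrated features and 35 others, which serve here as the comparison. Because levels and share chose the set, both are given as descriptions. The rows analysed here carry no gene identifier, so each feature is called by its row number and no function is given.

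In the study, single blastomeres of *P. redivivus* were profiled from the 1-cell stage onwards to follow embryogenesis cell by cell. Egg shells were removed, embryos were taken apart by hand, and each collected cell was barcoded by CEL-Seq2 with the cells of an embryo joined in 1 sequencing library. The groups used here, in order of stage, were 1 to 3 cells (9 libraries), 6 to 10 cells (50), 12 and 20 cells (27, from 1 embryo of each stage), early gastrula (33, from 1 embryo) and late gastrula (40, from 1 embryo). The labels state no strain, treatment or genotype, leave the culture of origin of each embryo unstated, and give 21 of the 40 late gastrula libraries a further digit in the title, between 2 and 6, which may be a number of cells collected together.

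CEL-Seq2 marks RNA at its 3′ end with a barcode for the cell and a random identifier for the molecule, and then amplifies it linearly. In *Caenorhabditis elegans*, the best studied nematode, blastomeres acquire separate fates through early asymmetric divisions, and gastrulation moves the gut precursors and then others to the inside. A transcript restricted to 1 lineage is therefore present in few cells of the embryo, and in a single-cell series its counts collect in few libraries. A weakly expressed transcript can give the same picture through the small number of its counts, and shares to be expected from the library totals are therefore given.

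The 73 gastrula libraries held 528077 counts over the features used, with 1190 to 40702 counts per library (median 4924). The late gastrula embryo contributed 72.1% of these counts and the libraries with a digit contributed 47.3%. The deepest library, late gastrula library 1, held 7.71%. The other groups held 55990 counts at 1 to 3 cells, 732855 at 6 to 10 cells and 233171 at 12 and 20 cells. The 1-3 cell libraries belong to a lower series of sample numbers and all other groups above to a higher one, so that stage and series cannot be told apart for that step. Each gastrula stage is 1 embryo and 1 sequencing library, so stage, embryo and sequencing library cannot be told apart either, and no test between gastrula stages was possible. What 1 count stands for, a read or a molecule with its own identifier, is not stated in the sources. If counts are of reads, several counts in a library may be copies of 1 molecule, which was not tested. Intervals below are exact Poisson intervals at a level of 95% and cover counting error only.

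The concentrated features were sparse but not single-library features. Each had 22 to 51 gastrula counts (median 32), or 41.7 to 96.6 CPM (median 60.6 CPM), and was seen in 8 to 27 of the 73 libraries (median 16). Their 5 highest libraries held 50% to 86.4% of their counts (median 58.7%), whereas the same libraries held 5.88% to 21.6% of all counts (median 13.8%). The ratio of these shares ran from 2.48 to 11.7 (median 4.21). In the 35 comparison features the 5 highest libraries held 25% to 49% of the counts (median 42.9%) and a median of 13.1% of all counts, a median ratio of 3.27. Any low count gives a raised ratio, because the highest libraries are picked by the count itself.

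A further measure, which takes this into account, is the share that the 5 highest libraries would hold if the same number of counts fell on libraries in proportion to their totals. That expected share was 33.7% to 43% for the concentrated features (median 38.5%), and the observed share exceeded it in 38 of 38, by a median of 1.56 times (1.24 to 2.32). The choice fixes this direction, since every expected share lies under the bound of 50%. For the comparison features the observed share exceeded the expected one in 27 of 35, by a median of 1.09 times (0.595 to 1.44). The concentrated features were detected in a median of 16 libraries where totals alone would give 23.0. For the comparison features the numbers were 21 and 21.9 libraries. The choice bears on that contrast as well, since counts gathered in 5 libraries leave fewer for the rest. The features of this level range therefore form a continuous run of values across the bound, and at the bound the sets touch. Rows 639 (50 counts) and 743 (28 counts) lay at 50%, as did row 1506, while rows 220 (49 counts, 49%) and 930 (39 counts, 48.7%) lay just outside.

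**Figure D1:**
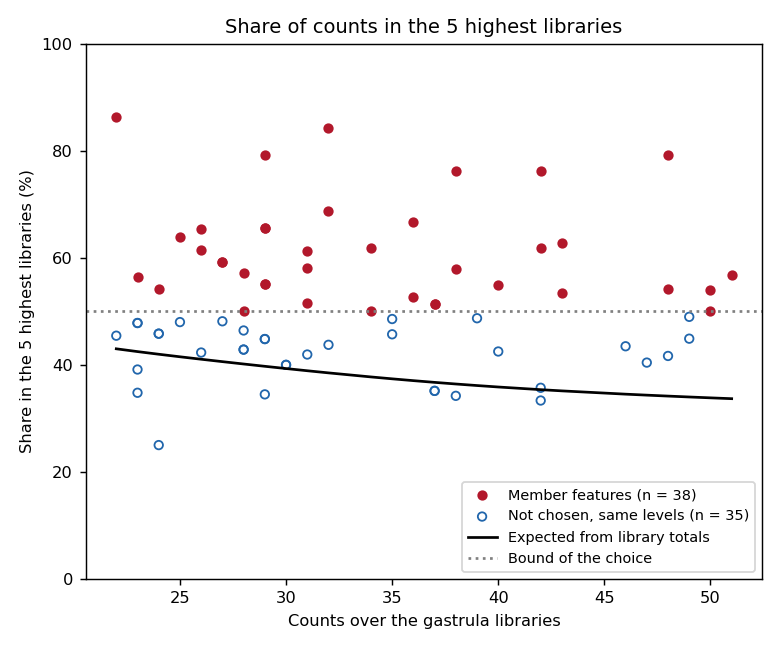
Share of each feature's gastrula counts held by its 5 highest of 73 libraries (vertical axis, %) against its number of gastrula counts (horizontal axis), for the 38 concentrated features (filled) and the 35 comparison features (open). The solid line is the share expected from library totals and the dotted line is the bound of 50%; points run continuously across the bound, and the highest concentrated feature reaches 86.4%.

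The strongest concentration belonged to rows 777, 490, 257, 1306, 1307 and 503. Row 777 had 22 counts in 8 libraries, with 7 in late gastrula library 35, 4 in library 38, 3 each in libraries 11 and 33 and 2 in library 40. Its 5 highest libraries held 86.4% of its counts and 12.7% of all counts. Row 490 had 32 counts in 10 libraries, of which 19 were in late gastrula library 33, 3 in library 38 and 2 each in late gastrula library 1 and early gastrula library 26. A single library thus held 59.4% of row 490 and 2.21% of all counts, the highest such share of the set. Row 257 had 14 of its 29 counts in late gastrula library 33, and row 1306 had 17 of 48 there and 11 in library 38. Row 1307 had 12 of 38 counts in library 33 and 6 in library 1, and row 503 had 11 of 42 in each of libraries 26 and 33. These 6 features therefore drew on an overlapping handful of late gastrula libraries.

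Ordered by the ratio to library totals, rows 466 and 826 came before rows 777 (6.80) and 257 (6.31), and rows 1159 and 84 after them. Row 466 reached the highest ratio, 11.7, because its 5 libraries were of early gastrula and held only 5.88% of all counts. Row 826 followed with a ratio of 8.34, with 4 counts in early gastrula library 7 and 3 each in early library 27 and late libraries 8, 9 and 25. Row 1159 (ratio 5.71) had 8 of 36 counts in late gastrula library 39, 6 in library 40 and 5 in library 28. Row 84 (5.62) had 9 of 51 counts in late library 10. In most of the set the leading library was far less dominant. The highest library held a median of 19.6% of a feature's counts, and the highest count was 4 to 19 (median 7).

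Leading libraries were mostly of the late embryo. The highest count lay in a late gastrula library for 36 of the 38 features and in an early one for rows 466 and 826. Late libraries held 72.1% of all counts. Of the comparison features, rows 381, 408, 554, 631, 769, 1175, 1210, 1214 and 1495 had their highest count, alone or tied, in an early library. The choice by share bears on this contrast, since a feature present in only the late or only the early embryo has fewer libraries to spread over. A library with a digit in its title held the highest count, alone or tied, of 28 concentrated features. Such libraries also led comparison features, among others rows 395, 402, 598, 644, 668, 697, 767 and 778, alone or tied. The same held for rows 930, 980, 1200, 1217, 1352, 1429, 1456 and 1543. Libraries with a digit held 59.7% of the summed counts of the concentrated features, 53.6% of those of the comparison features and 47.3% of all counts. In a library of several cells, more cells of a type and more RNA per cell cannot be told apart. The 5 deepest libraries held 27.8% of the counts of the concentrated features, 24.1% of those of the comparison features and 23.7% of all counts. Their part in the concentration was not tested.

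**Figure D2:**
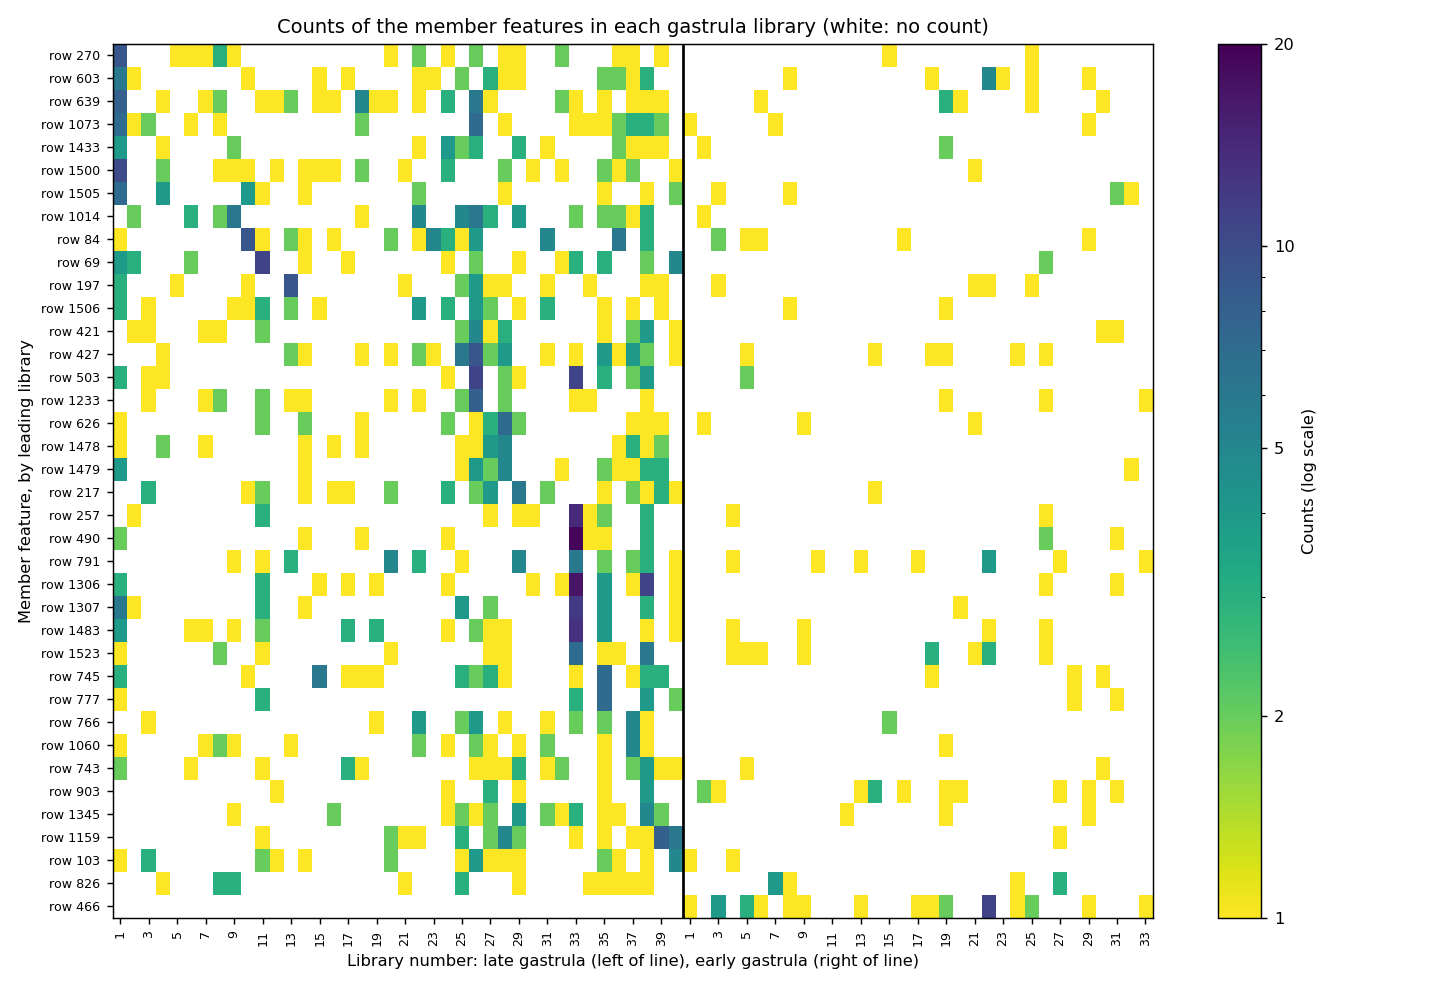
Counts of the 38 concentrated features (vertical axis, ordered by the library with the highest count) in each of 40 late and 33 early gastrula libraries (horizontal axis, late left of the line); colour is the count on a log scale and white is no count. The column of late library 33 is dark for 8 features, late libraries 1 and 26 lead 7 features each, and row 466 is filled to the right of the line only.

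Late gastrula library 33 carried more of the set than any other library. It held 11693 counts in all, 2.21% of the gastrula total, and its title has the digit 2. The concentrated features summed to 10092 CPM there, whereas the other 39 late gastrula libraries lay between 1083 and 5766 CPM. The next highest was late library 11, at 5766 CPM from 45 counts. Library 33 was the highest library, alone or tied, of 8 features (rows 257, 490, 503, 791, 1306, 1307, 1483 and 1523). Of these, row 490 stood at 26.8 times the library's share of all counts and row 791 at 6.30 times, the extremes of the 8. The comparison features came to 2651 CPM in the same library. The choice bears on this contrast, since it took features whose counts gather in few libraries and left the others for comparison. The label gives no lineage or cell name for it.

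A feature was said to have an excess in a library at 5 or more counts and at least 5 times the library's share of all counts, a rule set after the values were seen. An excess in at least 1 library was found for 28.2% of the 639 features with 20 or more gastrula counts. It was found for 25 of the 38 concentrated features and for 3 of the 35 comparison features, counts on which the choice by share bears directly. In library 33, 35 of the 639 features were in excess (5.48%), among them the 8 named above and none of the comparison features. Libraries 11 and 13 had 32 such features each, and no other late library more than 12. A single concentrated feature was in excess in each of these, row 69 in library 11 (11 of 42 counts) and row 197 in library 13 (9 of 31 counts). In library 11, 2 comparison features were in excess as well, and in library 13 none. The 639 features include the 38 concentrated ones, and the choice used these counts, so the numbers are a description.

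**Figure D3:**
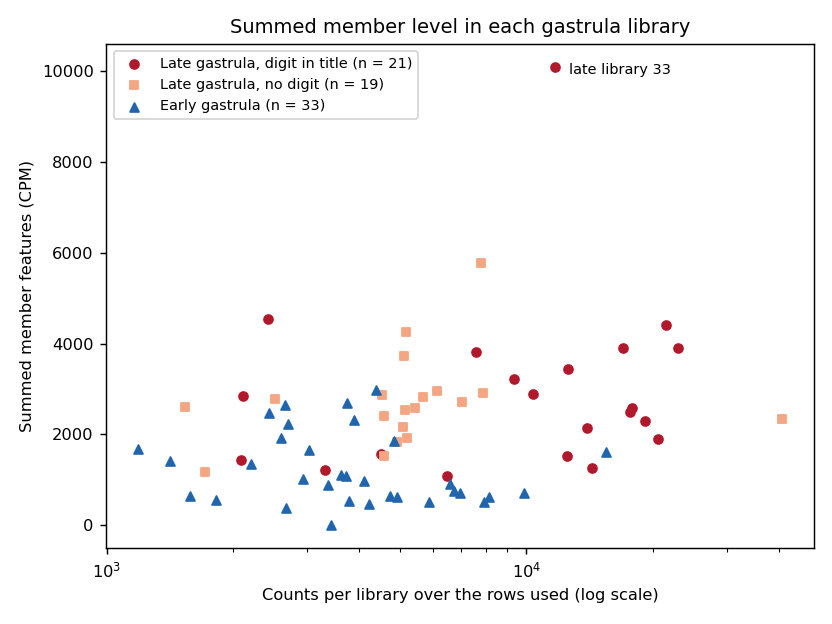
Summed level of the 38 concentrated features (vertical axis, CPM) in each gastrula library against the library's counts over the features used (horizontal axis, log scale), with late libraries with a digit in the title, late libraries without one and early libraries marked apart. Late library 33 stands at 10092 CPM, and the 33 early libraries lie between 0 and 2973 CPM, overlapping the lower late libraries.

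Outside library 33 the 8 features it led kept 13 to 37 counts each. Their 5 highest remaining libraries held 53.3% to 76.9% of these, where library totals would give 37.1% to 52.5%. For row 490, with 13 counts left, the share was 69.2% against an expected 52.5%, and for row 257, with 15 left, 66.7% against 49.2%. These counts were part of the choice, so the shares are a description. The set chosen anew without library 33 had 42 features, 35 of them among the 38.

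Co-occurrence was measured between features by the libraries in which each had at least 2 counts, as the number with both over the number with either. Over the 703 pairs of concentrated features the median overlap was 14.3%. Over the 595 pairs of comparison features the median was 14.3% as well. Overlaps of 50% or more were seen in 17 pairs of concentrated features (2.42%) and in 4 pairs of comparison features (0.672%). The pairs share libraries of unequal depth, and outside the 5 deepest libraries the counts were 15 (2.13%) and 3 (0.504%). Without library 33 the number of such pairs of concentrated features was 13. The median overlap was thus the same in both sets, and close pairs were few.

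The close pairs centred on rows 257, 777, 1306 and 1307. Rows 257 and 777 shared 4 of the 5 libraries that had either (80%), as did rows 257 and 1306, and the 4 were late libraries 11, 33, 35 and 38 both times. Rows 1306 and 1307 shared 5 of 7 (71.4%), the same 4 and library 1. These rows are neighbours in the table. If neighbouring rows are neighbouring or near-identical genes, their counts could share reads, which was not tested. Among the concentrated features 2 other pairs were neighbours, rows 1478 and 1479 with 33.3% overlap and rows 1505 and 1506 with 16.7%. Rows 745 and 1479 formed a separate close pair with 6 of 9 libraries (66.7%) in late libraries 1, 26, 27, 35, 38 and 39. A further one, rows 421 and 1233, shared 4 of 7 (57.1%) in libraries 11, 25, 26 and 28.

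Late libraries 11, 33, 35 and 38 together held 11.3% of all gastrula counts. They held 50% or more of the counts of 5 concentrated features, which were row 777 (17 of 22 counts, 77.3%), row 257 (22 of 29, 75.9%), row 1306 (35 of 48, 72.9%), row 490 (23 of 32, 71.9%) and row 1307 (22 of 38, 57.9%). For the comparison features no such case was found. Over the 30 concentrated features without an excess in library 33 the median was 12.5%, close to the share of all counts. In the early embryo these 5 features had 1 to 3 counts each, spread over libraries 4, 20, 26, 28 and 31. Library 26 held 2 counts of row 490 and 1 each of rows 257 and 1306, and library 31 held 1 each of rows 490, 777 and 1306. The 4 libraries were chosen from these features, so the shares describe them and support nothing further.

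The 12 and 20 cell libraries were not used in the choice and show when and where the features were present before gastrulation. At least 1 count was found there for 33 of the 38 concentrated features, against 80.6% of the 1195 features with a gastrula count. The share was thus near that of all features, a background that is not matched in level. Of the 35 comparison features, which lie in the same level bounds, 33 had at least 1 count there. Rows 490, 503, 626, 777 and 1478 had no count among the 233171 of these libraries, where a floor of 3 counts is 12.9 CPM. At least 3 counts were found for 27 of the 38 concentrated features and for 30 of the 35 comparison features. Levels at 12 and 20 cells had a median of 25.7 CPM per feature (0 to 210.1 CPM). Lower there than in the gastrula were 29 of the 38 concentrated and 26 of the 35 comparison features, a count that the lower bound on the gastrula level favours in both.

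Rows 257 and 1306 were restricted at 20 cells as well. Row 257 had 12 counts in 20-cell library 16, 11 in library 15, 8 in library 17 and 2 in library 7, and none in the other 13 libraries of that embryo. Row 1306 had 7 counts in library 16, 6 in library 15 and 1 in library 17, and none elsewhere. Neither had a count in the 12-cell embryo. In the 20-cell embryo libraries 15 and 16 together held 69.7% of row 257 and 92.9% of row 1306, against 11.1% of all counts. Row 1307 had 6 counts in library 15, 1 in library 16 and 2 in library 17, or 77.8% in libraries 15 and 16, and a further 7 counts in 4 libraries of the 12-cell embryo. Library 17 is the deepest of the embryo, with 42908 counts, and its title has the digit 3. Libraries 15 and 16 had 10705 and 4786 counts and no digit.

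The pair of rows 257 and 1306 was the closest among the 15 concentrated features with 10 or more counts at 12 and 20 cells. It shared 2 of 4 libraries (50%), and no other pair reached that overlap. The median over these pairs was 14.3%, as in the gastrula. Rows 257 and 1306 were thus found together in 4 late gastrula libraries and in 2 libraries of a separate, earlier embryo. The other close gastrula pairs overlapped less there. Rows 257 and 1307 shared 2 of 7 libraries (28.6%), as did rows 421 and 1233. Rows 1306 and 1307 shared 1 of 6 (16.7%), and rows 603 and 1307 shared 1 of 8 (12.5%). Row 777, as close to row 257 in the gastrula as row 1306, had no count at 12 and 20 cells. The pair was singled out as the closest, so its recurrence is a description.

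Among all 572 features with 10 or more counts in the 20-cell embryo, 2.1% had 50% or more of them in libraries 15 and 16. That is 12 features. Of the 35 features in excess in late gastrula library 33, 27 had 10 or more counts at 20 cells and 10 of these 27 were among the 12. Rows 257 and 1306 are 2 of the 10, and the others lay outside the level bounds of the set. The most abundant was row 200, with 1366 gastrula counts, of which 971 (71.1%) lay in late libraries 11, 33, 35 and 38. At 20 cells row 200 had 305 counts, of which 225 lay in libraries 15 and 16 and 75 in library 17. Rows 256 and 258, the neighbours of row 257, had 83.3% and 82.1% of their gastrula counts in the same 4 late libraries, and 84.6% and 73.1% of their 20-cell counts in libraries 15 and 16. Rows 256, 257 and 258 are each counted among the 10. As neighbouring rows they could share reads, which was not tested. Libraries 15 and 16 were picked after rows 257 and 1306 were seen there, and the count is a description.

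**Figure D4:**
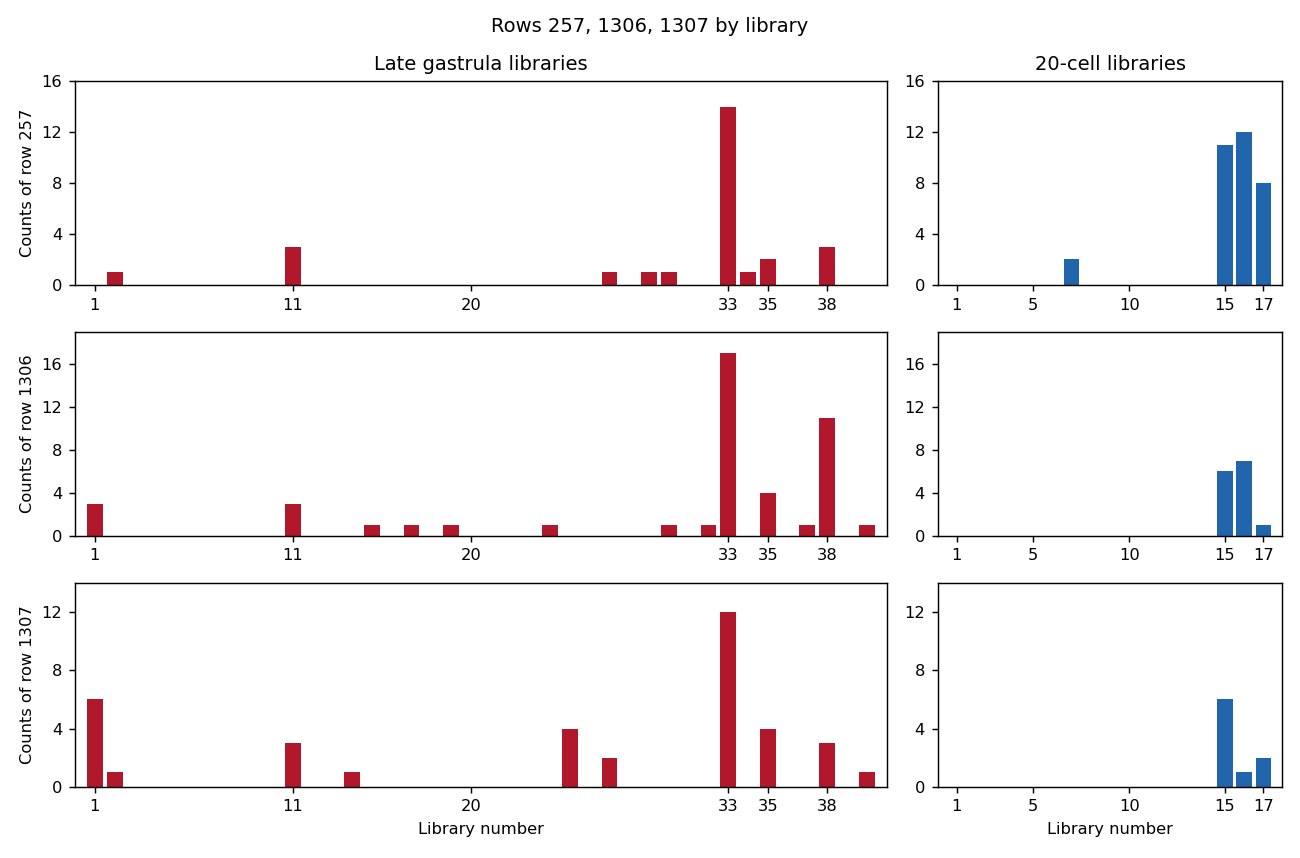
Counts (vertical axis) of rows 257, 1306 and 1307, from top to bottom, in the 40 late gastrula libraries (left) and the 17 libraries of the 20-cell embryo (right), by library number (horizontal axis). The bars of rows 257 and 1306 gather at late libraries 11, 33, 35 and 38, and those of all 3 rows at 20-cell libraries 15, 16 and 17. Row 1307 is highest at late libraries 33 (12 counts) and 1 (6 counts).

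The other features led by late library 33 did not follow that pattern at 20 cells. Rows 490 and 503 had no count there. Row 791 had 28 counts at 20 cells spread over 10 of the libraries, 7 of them in library 17 and 5 in library 15. Row 1523 had 11 counts, 2 of them in library 15, and row 1483 had 2, both in library 17. Of the 30 remaining concentrated features, 20 had 3 or more counts at 20 cells, and none of these had 50% of them in libraries 15 and 16. Such features were few at large, 23 of all 744 with 3 or more counts at 20 cells, so nothing is read from their absence here.

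Concentration beyond the library totals was also measured at the stages that the choice of shares did not use. At 12 and 20 cells, 15 concentrated features had 10 or more counts, and their 5 highest of 27 libraries held a median of 1.33 times the share expected from library totals, with 12 of 15 above 1. The comparison features stood at 1.19 times, with 12 of 14 above 1, and all 205 features of 10 to 49 counts at 1.23 times, with 85.9% of them above 1. At 6 to 10 cells the medians were 1.31 times for 26 concentrated features, 1.06 times for 26 comparison features and 1.25 times for 268 features of like counts. Features of that depth exceeded the expectation at large, and the concentrated ones lay within the range of the rest.

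The features with most counts at 12 and 20 cells were rows 639 (49 counts), 791 (39), 257 (33) and 1433 (28). Row 639 had 20 of its counts in 20-cell library 17, and 9 each in 20-cell library 8 and 12-cell library 2. Its 5 highest libraries held 89.8% where totals would give 53.8%. Row 1433 was spread over 14 libraries with 1 to 5 counts each, and its 5 highest held 57.1% against an expected 58.7%. It was the only 1 of these 4 with more counts in the 12-cell embryo, 21, than in the 20-cell embryo, 7. Row 1500 had 10 of its 12 counts at 20 cells in library 17. A feature concentrated in the gastrula could thus be restricted or widespread before it.

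Between the 20-cell and the 12-cell embryo, 97 of 636 features (15.3%) were at least 4-fold higher and 8.81% at least 4-fold lower at 20 cells. Of the 15 concentrated features with 10 or more counts, 4 were at least 4-fold higher and 2 at least 4-fold lower. Among 14 comparison features the numbers were 6 and 1. No test was run on these small counts. Summed over the set, the concentrated features came to 2104 CPM (95% interval 1870 to 2359) in the 20-cell embryo and 1129 CPM (924 to 1365) in the 12-cell embryo.

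The late gastrula embryo held the larger part of the set. The summed level of the concentrated features was 2987 CPM (2816 to 3166) in the late gastrula and 1139 CPM (974 to 1325) in the early gastrula. By library, sums ran from 1083 to 10092 CPM (median 2599) in the late embryo and from 0 to 2973 CPM (median 977) in the early embryo, so the libraries overlapped. Without library 33 the late sum was 2762 CPM. The comparison features came to 2380 CPM in the late embryo and 1600 CPM in the early embryo. Late libraries were also deeper, with medians of 6288 counts in the late and 3727 counts in the early embryo, and their part in this difference was not tested.

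Feature by feature, 34 of the 38 concentrated features were higher in the late embryo, as were 24 of the 35 comparison features and 485 of the 754 features with 10 or more gastrula counts. The median ratio of late to early was 4.20, against 1.66 for the comparison features and 1.33 for all features tested. At least 4-fold higher in the late embryo were 13.3% of the 754 features, and 4.38% were at least 4-fold lower. Of the 38 concentrated features, 19 were higher and 1 was lower by that measure, and of the 35 comparison features 7 and 1. The choice bears on this count, since a feature present in 1 of 2 embryos has fewer libraries to spread over, and nothing is read from it. Without library 33, 18 features were higher and 1 was lower.

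The features leaning most to the late embryo were rows 1014, 1307, 217 and 1159. Row 1014 had 47 counts in the late embryo (123.5 CPM, 90.7 to 164.2) and 1 in the early embryo (6.78 CPM, 0.172 to 37.8). It was spread over 16 libraries, with no more than 6 counts in any. Row 1307 had 37 late counts and 1 early count, row 217 had 36 and 1, and row 1159 had 35 and 1. The ratios of late to early level were 18.2, 14.3, 13.9 and 13.6 in this order, each resting on 1 early count. Row 1478 had 25 late counts (65.7 CPM, 42.5 to 97) and none in the early embryo, where the counting interval reaches 25 CPM. Against a floor of 3 counts over the early libraries, its level was 3.23-fold higher in the late embryo. The feature next to it, row 1479, had 28 late counts and 1 early count.

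Row 466 was the only feature of the set found in the early and not in the late gastrula embryo. It had no count in the late gastrula and 32 counts in the early gastrula, 217 CPM (148.4 to 306.4). Against a floor of 3 counts over the late libraries, its level was 27.5-fold lower in the late embryo, where the counting interval reaches 9.69 CPM. The 32 counts lay in 15 of the 33 early libraries, with 11 in library 22, 4 in library 3, 3 in library 5, 2 each in libraries 19 and 25, and 1 each in the remaining 10. Library 22 is the deepest early library, with 15510 counts, 2.94% of the gastrula total. Before gastrulation row 466 had 2 counts in the 20-cell embryo, 2 in the 12-cell embryo and 1 at 6 to 10 cells. Its gastrula counts thus came from 1 embryo, with 34.4% of them in 1 library.

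Rows 903, 1523 and 826 also leaned to the early embryo, by less. Row 903 had 11 late counts (28.9 CPM, 14.4 to 51.7) and 13 early counts (88.2 CPM, 46.9 to 150.8), a ratio of 0.328. Row 1523 stood at 57.8 CPM in the late and 81.4 CPM in the early embryo, and row 826 at 44.7 CPM in the late and 61 CPM in the early embryo. The counting intervals of rows 1523 and 826 overlapped between the embryos, and those of row 903 did as well. Row 603, with 27 late and 10 early counts, was the most even, at a ratio of 1.05.

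Over the whole course the summed level of the set was 125.02 CPM (50.3 to 258) at 1 to 3 cells, 1221 CPM (1143 to 1304) at 6 to 10 cells, 1711 CPM (1547 to 1888) at 12 and 20 cells, 1139 CPM in the early gastrula and 2987 CPM in the late gastrula. The bounds of the choice cap the first 2 of these levels and set the gastrula ones, so the order is a description. At 1 to 3 cells, 35 of the 38 features had no count, and the 7 counts found came from rows 1060 (4), 903 (2) and 427 (1). A floor of 3 counts was 53.6 CPM there. Between the 8 embryos of 6 to 10 cells the sum varied from 659 CPM in the 10-cell embryo to 2085 CPM in 8-cell embryo 5. The early gastrula embryo lay within that range and the late gastrula embryo above it.

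**Figure D5:**
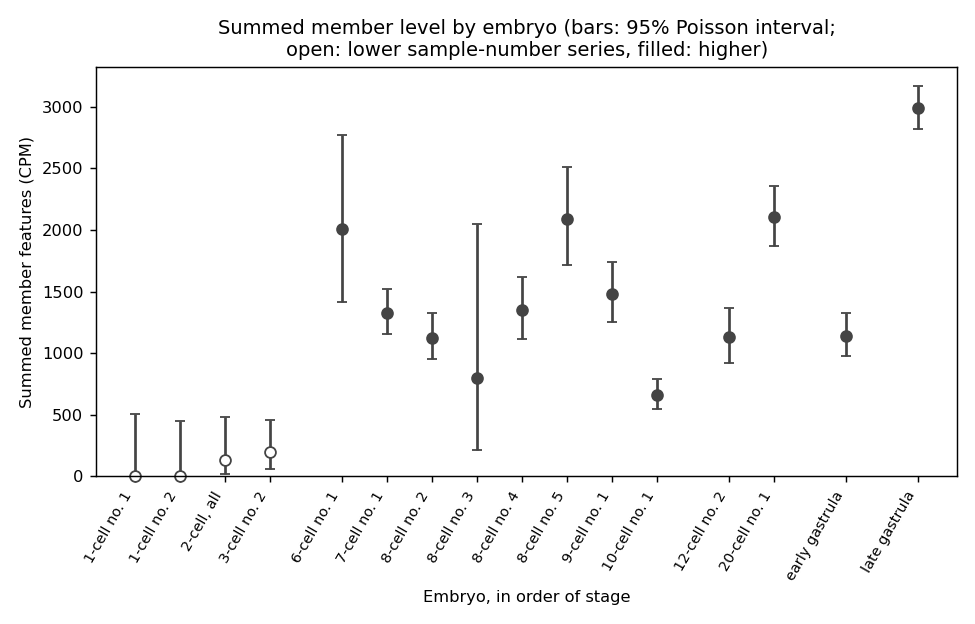
Summed level of the 38 concentrated features (vertical axis, CPM) in each embryo in order of stage (horizontal axis), with 95% Poisson intervals for counting error; open points belong to the lower and filled points to the higher sample-number series. The late gastrula embryo is highest at 2987 CPM, the 20-cell embryo stands at 2104 CPM, and the early gastrula embryo at 1139 CPM lies among the 6-10 cell embryos.

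Single features differed widely at 6 to 10 cells. Rows 490 and 777 had no count among 732855, where a floor of 3 counts is 4.09 CPM, and none at 12 and 20 cells, so they were seen in the gastrula libraries only. A further 7 features had 1 to 3 counts there, among them rows 466, 1014 and 1306. At the other end rows 639 and 1307 had 65 and 64 counts, 88.7 and 87.3 CPM, just under the bound of 100 CPM. Row 1307 was uneven there, with 28 of its 64 counts in 8-cell embryo 5 (516.7 CPM) and 10 in the 6-cell embryo (543.6 CPM). In the other embryos of 6 to 10 cells it reached no more than 94 CPM. Row 257 had 8 counts in the 9-cell embryo and 3 in the 10-cell embryo, and none in the other 6 embryos. Rows 791, 1073 and 1433 were found in each of the 8 embryos.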

How the data were processed

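The authors deposited raw counts, 1 whole number per feature and library, with no normalization. Per the submitters' processing notes, the tools included Bowtie2 2.1.0, HTSeq 0.5.4p3 and CASAVA 1.8, and no genome build is stated in what was used here. The copy of the table used here holds 1572 complete rows and 1 incomplete row, which was not used, and 189 columns, each assigned to its sample by number. Totals are those of the rows used, not library depths. Rows 789, 955, 956, 1147, 1149 and 1177, which dominate some libraries, were left out, giving 1566 features. The members, comparison features and measures were chosen with earlier results of these data known.

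CPM was the summed count over the summed total. The expected share of the 5 highest libraries was computed from Poisson counts proportional to library totals, a measure added after the data were seen and checked on simulated data. With 1 embryo per gastrula stage, and a choice that used the same counts, no test was run; 4-fold changes were counted instead. Features named were the 6 with the highest share, the 6 with the highest ratio to totals, the 4 with most counts at 12 and 20 cells, the 4 leaning most to each gastrula stage, the members of the 3 closest pairs and those next to the bound, 20 in all. Other rows were named after their values were seen. Alternatives varied the number of libraries, the bound, the libraries used, the fold and the count that marks presence. Python 3.11.15, numpy 2.4.6, pandas 2.3.3, scipy 1.17.1 and matplotlib 3.10.9 were used.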

Additional observations from a re-analysis of the deposited data

Results flagged for a closer look

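Gaps between a sample and its group were examined in 11 sets of 4 to 10 samples, and 3 of them held a sample that stood apart by Dixon's criterion. The criterion is set so that chance alone does so in about 1 in 20 groups of replicate samples. The sets here were different cells of 1 embryo or embryos of different stages, so that rate does not apply to them. In 12-cell embryo 2, the summed concentrated features came to 4502 CPM in library 4, against 0 to 1420 CPM in the other 9 libraries. The 19 counts behind it were 6 each of rows 197 and 1506, 5 of row 791 and 1 each of rows 427 and 1073. In the same library row 791 stood at 1185 CPM, against 0 to 239 CPM in the others, so these 2 results share counts. Library 4 held 4220 counts, and its title names no lineage. Among the 4 embryos of 12 to 20 cells, row 257 was found in the 20-cell embryo alone, at 237 CPM from 33 counts. Row 257 was examined because of its many counts at 12 and 20 cells, and the other 3 embryos are at 0, so that this gap follows from the choice and shows nothing more. The embryos without a count include 12-cell embryo 1 and the 14-cell embryo, which belong to the lower sample-number series and hold 8981 and 11090 counts.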

How the results depend on the processing

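The membership depended on the bounds and on which libraries were counted. Against 38 features as reported, the set held 11 features with the 3 highest libraries, 72 with the 10 highest, 64 at a share of 40% and 17 at a share of 60%. With the libraries with a digit left out it held 65, of which 19 were among the 38. With 1 gastrula embryo left out it held 62 to 65 features, of which 28 were among the 38 without the early embryo and 8 without the late embryo. It held 39 to 45 features with the 6 rows kept, with libraries under 2000 counts left out, with equal library weights, without the deepest library or without late library 33. The median share was 80% with the libraries with a digit left out, and 64.4% to 100% with 1 embryo left out. The median ratio to totals was 3.26 to 6.68 with 1 embryo left out, and 4.06 to 4.76 in the other settings. At 2-fold, 33 features differed between late and early gastrula (31 higher, 2 lower in late), against 20 at 4-fold, and 16 to 21 in the other settings. Without the 20-cell embryo 19 features, and without the 12-cell embryo 32, had a count at 12 to 20 cells. The number of pairs with an overlap of 50% was 4 when 1 count marked presence, 23 when 3 did and 42 with the libraries with a digit left out. Causes of these shifts were not tested.

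No paired analysis was possible because the gastrula stages have 1 embryo each and no difference between groups was tested. With 22 to 51 counts per feature, a shift of a few counts moves a feature across the bound.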
